A study of Mus musculus with 17 samples.

Results

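The 10 genes described here encode secreted inhibitors of Wnt signalling (Sfrp1, Sfrp2, Sfrp5, Frzb, Wif1 and Dkk2), Frizzled receptors (Fzd1, Fzd2 and Fzd4) and the ligand Wnt5a. They were taken by symbol from the 21798 genes of an RNA-sequencing table of the mouse heart, in which all 10 were found. Expression was measured in left ventricular apex of male C57Bl6/J mice, 7 to 8 weeks old at surgery, collected 3 weeks after transverse aortic constriction (TAC), which narrows the aorta and loads the left ventricle with pressure, or after Sham surgery. Mice received 50 µg/kg 29P, an oral prodrug of a cyclic peptide that binds αvβ3 integrin, or saline vehicle (Veh) by gavage in the last 2 of the 3 weeks, and no group carried an engineered allele. The 17 libraries were 6 TAC 29P, 3 TAC Veh, 3 Sham 29P and 5 Sham Veh, each from a single mouse and named by the library number in its label (S1 to S20). The genes were chosen by expression values of these libraries, with their results known, and the record does not say which comparison was used, so their levels and differences are given as a description without a test.

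Wnt proteins are secreted lipid-modified ligands that bind Frizzled receptors together with the co-receptors Lrp5 and Lrp6, which protects beta-catenin from degradation and lets it activate TCF/LEF target genes, or they act through branches that do not need beta-catenin. Secreted Frizzled-related proteins (Sfrp1, Sfrp2, Sfrp5 and Frzb) carry a Frizzled-like cysteine-rich domain and bind Wnt ligands outside the cell, Wif1 binds Wnt ligands through a different domain, and Dkk2 binds Lrp5 and Lrp6. In the adult heart, Wnt signalling is low and is engaged again after injury and overload, when fibroblasts are a known source of several of these secreted inhibitors.

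Promoter sequences are shown for 4 members, because Sfrp2 and Fzd1 had higher transcript levels after TAC than in Sham mice whereas Sfrp5 and Wif1 did not. They come from the RefSeq promoter table for GRCm38.p6, which held 7 of the 10 members (Sfrp2, Sfrp5, Frzb, Wif1, Dkk2, Fzd1 and Fzd4), and only bases before both the RefSeq and the GENCODE vM21 start of the gene are printed. Each runs 5′ to 3′ along the strand of the gene, and capitals mark matches, on either strand, to the letters CTTTGA (the TCF/LEF core), TGANTCA (AP-1), CATTCC (TEAD) or TATAAA (the TATA box).
Sfrp2, chr3:83766071-83766320, plus strand: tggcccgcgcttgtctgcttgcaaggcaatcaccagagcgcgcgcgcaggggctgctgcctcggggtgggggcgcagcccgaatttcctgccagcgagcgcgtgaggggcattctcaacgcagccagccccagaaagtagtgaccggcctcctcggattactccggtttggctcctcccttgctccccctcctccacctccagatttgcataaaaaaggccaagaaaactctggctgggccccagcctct
Fzd1, chr5:4758217-4758466, minus strand: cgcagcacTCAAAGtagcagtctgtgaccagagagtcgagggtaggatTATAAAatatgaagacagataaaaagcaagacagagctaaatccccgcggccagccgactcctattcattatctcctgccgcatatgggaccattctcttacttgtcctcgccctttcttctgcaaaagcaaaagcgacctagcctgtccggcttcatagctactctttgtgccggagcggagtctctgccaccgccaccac
Sfrp5, chr19:42202253-42202502, minus strand: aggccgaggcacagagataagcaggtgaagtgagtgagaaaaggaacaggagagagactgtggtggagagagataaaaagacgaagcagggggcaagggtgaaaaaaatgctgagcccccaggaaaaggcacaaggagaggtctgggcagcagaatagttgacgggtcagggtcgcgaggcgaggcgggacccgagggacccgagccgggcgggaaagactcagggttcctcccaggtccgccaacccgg
Wif1, chr10:121033754-121033959, plus strand: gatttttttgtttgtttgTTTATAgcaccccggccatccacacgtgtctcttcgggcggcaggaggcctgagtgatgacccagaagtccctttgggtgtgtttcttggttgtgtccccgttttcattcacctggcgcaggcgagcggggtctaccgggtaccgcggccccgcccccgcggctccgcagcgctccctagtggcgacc
Fzd1 held 1 match to the TCF/LEF core, which 13.8% of the 32851 promoters of the table hold within 250 bases, and 1 to the TATA box, which 12.4% hold. Wif1 held 1 match to the TATA box, which 9.38% hold within 206 bases. Sfrp2 and Sfrp5 held none of the 4 motifs in these windows, and neither AP-1 (6.75% of promoters within 250 bases) nor TEAD (12.6%) was matched in any of the 4 sequences. These are matches of letters, not measured binding sites.

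The file holds CPM values, reads of a gene scaled to a common library total, and the step between low values put the depth at 14.2 to 23.8 M reads per library (median 20.4 M), so that 1 read stood for 0.0421 to 0.0705 CPM. The ventricular label was checked against marker genes. Cardiomyocyte transcripts (Myh6, Tnnt2, Actn2, Ryr2 and Pln) summed to 22220 to 36570 CPM in all 17 libraries. The atrial transcripts Sln, Myl7 and Myl4, however, summed to 1015 CPM in TAC 29P S18, 2543 in Sham Veh S19 and 2032 in Sham Veh S20, against at most 5.75 CPM in the other 14 libraries. Bmp10, the 4th atrial marker, reached 514 CPM in S18 and at most 0.224 CPM in the Sham Veh libraries. These 3 libraries make up the whole of one run of animal numbers in the labels, and differences are therefore given with and without them. The labels do not call these runs batches, and of the 4 runs only the largest held both TAC groups, with 5 TAC 29P libraries and 1 TAC Veh library. The authors had also removed a TAC Veh library that grouped with Sham libraries, which was not analysed here.

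Frzb (Frizzled-related protein, also Sfrp3), on chromosome 2 from 80411970 to 80447625 in mm10, differed clearly between surgeries. Its level in Sham Veh mice was 4.54 CPM in S5, 8.23 in S6, 4.04 in S13, 8.67 in S19 and 6.19 in S20, and in Sham 29P mice 5.995 CPM in S4, 3.17 in S14 and 3.46 in S15. In TAC Veh mice it was 37.6 CPM in S2, 15.9 in S12 and 27.9 in S16, and in TAC 29P mice it ranged from 11.5 CPM in S1 to 39.4 in S3 with a median of 21.1. Every TAC library was above every Sham library. The log2 difference between TAC Veh and Sham Veh was 2.06 (SE 0.38), a 4.17-fold higher level, and that between TAC 29P and Sham 29P was 2.29 (SE 0.36). Here and below, a difference is one of group means of log2(CPM + 0.1) from a model of all 17 libraries, and n is the number of libraries given for each group above.

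Sfrp2, on chromosome 3 from 83766321 to 83774316, was likewise higher after TAC in both treatments. Its mean difference and that of Frzb stood above those of the other members among the 9 that passed the filter on low values (CPM of at least 0.5 in at least 3 libraries). It was 2.15, 0.671, 2.66, 2.46 and 2.95 CPM in Sham Veh S5, S6, S13, S19 and S20, and 1.98, 1.69 and 1.23 CPM in Sham 29P S4, S14 and S15. In TAC Veh it was 9.93, 12.3 and 11.4 CPM in S2, S12 and S16, whereas TAC 29P libraries spread from 2.13 CPM in S8 through a median of 12.02 to 27.5 CPM in S3. The 3 TAC Veh libraries lay close together and above all Sham Veh libraries, and TAC 29P held both the highest level of the series and a level within the Sham Veh range. The log2 difference was 2.45 (SE 0.64) in Veh mice, 5.46-fold, and 2.49 (SE 0.62) in 29P mice. Without Sham Veh S6, where Sfrp2 was lowest, the difference in Veh mice was 2.09 for Sfrp2 and 2.17 for Frzb. GENCODE vM21 places Gm26771 on the opposite strand at Sfrp2, and the strand setting of the read counting is not given in the sources used here, so reads of the pair cannot be told apart.

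Sfrp1, on chromosome 8 from 23411502 to 23449632, had the highest mean level per kb of the secreted Frizzled-related proteins in both Sham groups, although in Sham Veh S6 Frzb was higher, with 51.4% of their summed CPM per kb against 38.7% for Sfrp1. It was 9.84, 8.37, 12.1, 15.6 and 15.7 CPM in Sham Veh S5, S6, S13, S19 and S20, 11.6, 7.96 and 11.6 CPM in Sham 29P S4, S14 and S15, and 44.0, 25.9 and 39.1 CPM in TAC Veh S2, S12 and S16. In TAC 29P it was 10.3 CPM in S1, 13.2 in S8, 22.2 in S9, 23.6 in S11, 36.5 in S3 and 38.9 in S18. All 3 TAC Veh libraries were above the Sham Veh libraries, while the lowest TAC 29P library was inside the Sham 29P range. The log2 difference with surgery was 1.56 (SE 0.36) in Veh mice, 2.95-fold, and 1.07 (SE 0.34) in 29P mice, and that between TAC 29P and TAC Veh was −0.71 (SE 0.34) with overlap between the groups.

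Sfrp5, on chromosome 19 from 42197971 to 42202252, and Wif1, on chromosome 10 from 121033960 to 121100650, gave another pattern. Sfrp5 was 0.715, 0.134, 0.333, 2.50 and 2.70 CPM in Sham Veh S5, S6, S13, S19 and S20, 0.692, 0.141 and 0.411 CPM in Sham 29P S4, S14 and S15, and 0.402, 0.0498, 0.0969, 0.844, 0.181 and 3.65 CPM in TAC 29P S1, S3, S8, S9, S11 and S18. It was listed at 0 in TAC Veh S2 and S16 and at 0.0489 CPM, the step of 1 read, in S12. All 3 TAC Veh libraries were thus below every Sham library, and TAC Veh S12 and TAC 29P S3 each stood at about 1 read. The size of the difference from Sham Veh rests on the constant added before the logarithm, with a log2 difference of −2.98 at 0.1, −0.99 at 1 and −9.87 at 0.0001, so no fold is given. The difference was −1.93 at 0.1 without the libraries with atrial transcripts.

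Wif1 was 0.841, 0.492, 1.05, 4.24 and 4.45 CPM in Sham Veh S5, S6, S13, S19 and S20, and 3.04, 0.282 and 1.76 CPM in Sham 29P S4, S14 and S15. In TAC Veh it was 0.349, 0.783 and 0.640 CPM in S2, S12 and S16, and in TAC 29P it was 1.03, 0.946, 0.582, 3.69, 0.363 and 4.78 CPM in S1, S3, S8, S9, S11 and S18. The groups overlapped, and the log2 difference between TAC Veh and Sham Veh was −1.32 (SE 0.82) with all libraries and −0.37 (SE 0.74) without the 3 that held atrial transcripts. For Sfrp5 and for Wif1, S18, S19 and S20 were the 3 highest of all 17 libraries. Without them Sfrp5 reached at most 0.844 CPM and Wif1 at most 3.69 CPM, both in TAC 29P S9. Dkk3, an inhibitor family member named here after its values were seen, was 100.1 to 194 CPM in the same 3 libraries and at most 26.4 CPM in the other 14. In 29P mice the log2 differences with surgery were 0.11 (SE 0.89) for Sfrp5 and 0.08 (SE 0.80) for Wif1, and both changed sign, to −0.14 and −0.24 with scaling by trimmed mean of M-values (TMM) and to −0.48 and −0.29 without S18, S19 and S20. Whether atrial tissue gave the Sfrp5 and Wif1 transcripts was not tested.

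**Figure D1:**
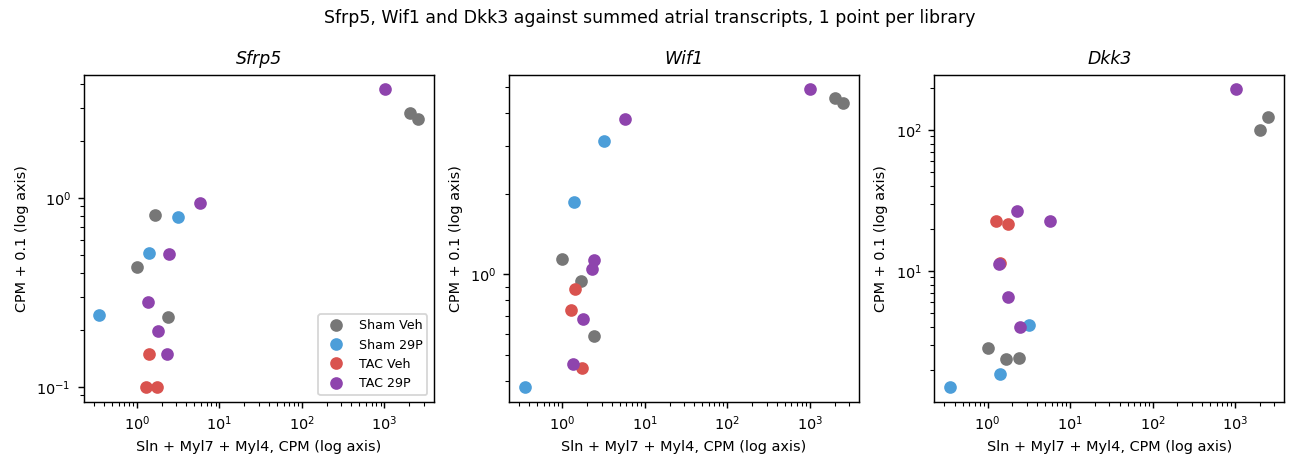
CPM + 0.1 of Sfrp5, Wif1 and Dkk3 (vertical log axes) against the summed CPM of Sln, Myl7 and Myl4 (horizontal log axes), 1 point per library, coloured by group. The 3 libraries at 1015 to 2543 CPM of atrial transcripts hold the highest values of all 3 genes, and the other 14 lie at 5.75 CPM or less.

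Dkk2, on chromosome 3 from 132085292 to 132180304, was close to the detection limit and did not pass the filter. It ranged from 0.0475 to 0.463 CPM in Sham Veh, 0 to 0.369 in Sham 29P, 0.196 to 0.249 in TAC Veh and 0.0485 to 1.13 in TAC 29P, where the highest value was that of S18. The groups overlapped, and at this depth no difference could be read from it.

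Fzd1, on chromosome 5 from 4753839 to 4758035, and Fzd2, on chromosome 11 from 102604396 to 102608058, are receptors for Wnt ligands, and both were higher after TAC. Fzd1 was 5.72, 4.74, 5.80, 5.81 and 8.79 CPM in Sham Veh S5, S6, S13, S19 and S20, and 7.93, 2.82 and 5.04 CPM in Sham 29P S4, S14 and S15. In TAC Veh it was 19.8, 11.9 and 14.5 CPM in S2, S12 and S16, and in TAC 29P it ranged from 8.99 CPM in S1 to 17.2 in S3 with a median of 13.5. On the CPM scale every TAC library was above every Sham library, narrowly so for TAC 29P S1 over Sham Veh S20. The scaling factors by trimmed mean of M-values (TMM) were 1.055 in S1 and 0.961 in S20. Divided by them, the order of these libraries was reversed. The log2 difference was 1.30 (SE 0.29) in Veh mice, 2.47-fold, and 1.38 (SE 0.28) in 29P mice.

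Fzd2 was 2.40, 2.10, 2.71, 2.28 and 3.45 CPM in Sham Veh S5, S6, S13, S19 and S20, 3.97, 1.83 and 1.64 CPM in Sham 29P S4, S14 and S15, and 7.43, 5.53 and 3.89 CPM in TAC Veh S2, S12 and S16. In TAC 29P it ranged from 4.75 CPM in S8 to 10.5 in S3 with a median of 5.77. On the CPM scale, each TAC group was above the Sham group of the same treatment. The log2 differences were 1.06 (SE 0.31) in Veh mice, 2.09-fold, and 1.45 (SE 0.30) in 29P mice.

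Fzd4, on chromosome 7 from 89404355 to 89413134, is a receptor for Wnt ligands and for norrin with a known role in vessels, and it had the highest level of the 10 genes. It was 66.9, 69.2, 89.0, 72.1 and 98.8 CPM in Sham Veh S5, S6, S13, S19 and S20, 67.0, 71.3 and 101.7 CPM in Sham 29P S4, S14 and S15, and 99.6, 112.5 and 165.6 CPM in TAC Veh S2, S12 and S16. In TAC 29P it ranged from 69.5 CPM in S8 to 107.2 in S18 with a median of 81.7. On the CPM scale the TAC Veh libraries were just above the Sham Veh libraries, the lowest at 99.6 against a highest of 98.8 CPM. These were S2 and S20, with TMM factors of 1.208 and 0.961, and divided by them their order was reversed. Of the 6 TAC 29P libraries, 5 lay within the range of Sham 29P and S18 was above it. The log2 difference was 0.65 (SE 0.19) in Veh mice, 1.57-fold, and 0.32 with TMM scaling. In 29P mice it was 0.11 (SE 0.19), which changed sign to −0.26 with TMM scaling. With the animal run in the model it was 0.38 in 29P mice and 0.51 in Veh mice.

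Wnt5a, on chromosome 14 from 28504750 to 28527448, encodes a ligand known mainly for signalling without beta-catenin. It was 9.34, 7.07, 6.42, 4.602 and 6.04 CPM in Sham Veh S5, S6, S13, S19 and S20, 10.7, 7.89 and 5.81 CPM in Sham 29P S4, S14 and S15, and 5.99, 5.62 and 4.53 CPM in TAC Veh S2, S12 and S16. In TAC 29P it was 8.36, 8.02, 8.09, 7.44, 8.30 and 8.43 CPM in S1, S3, S8, S9, S11 and S18. These 6 libraries lay close together and all above the 3 TAC Veh libraries, but inside the range of both Sham groups. The log2 difference was −0.28 (SE 0.21) between TAC Veh and Sham Veh, and −0.61 with TMM scaling. Between TAC 29P and Sham 29P it was 0.04 (SE 0.20), which changed sign to −0.32 with TMM scaling. Gm2670, which GENCODE vM21 places on the opposite strand at Wnt5a, was at most 0.150 CPM in any library.

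**Figure D2:**
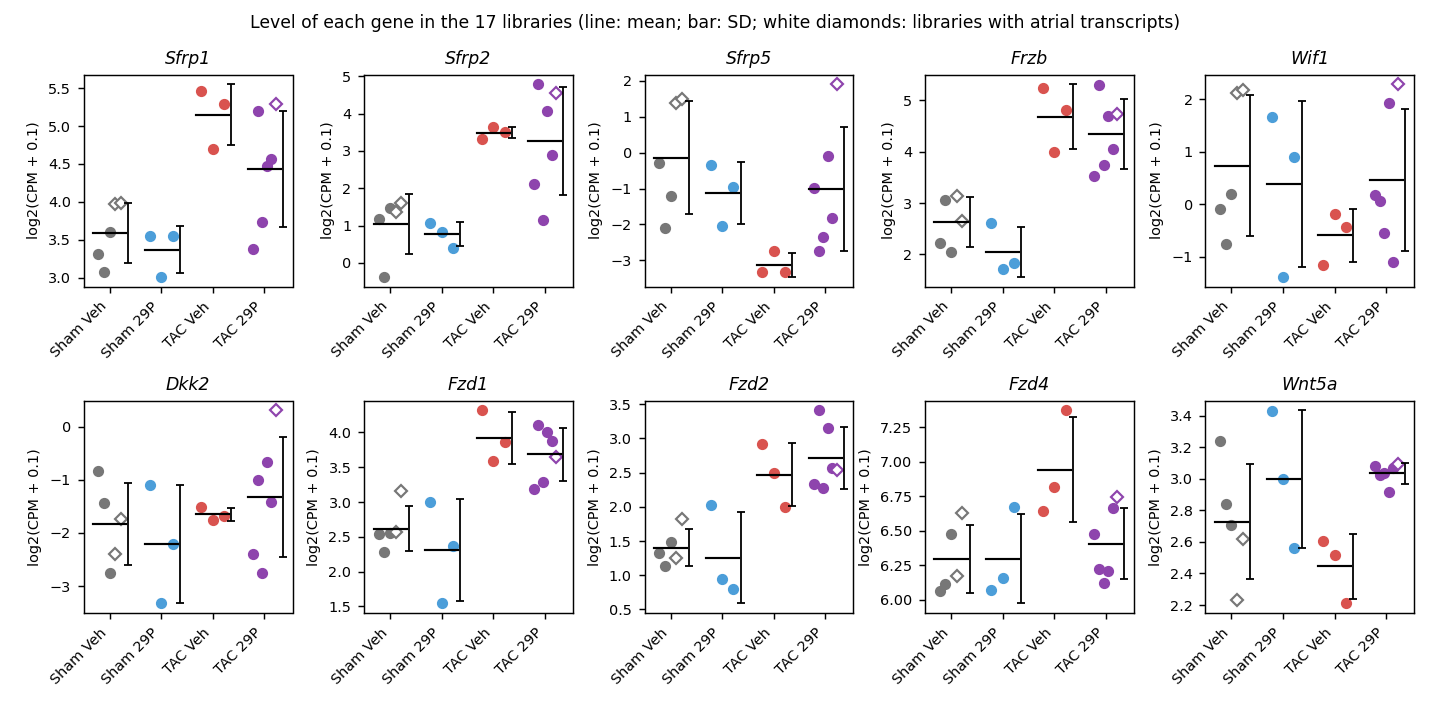
Level of each of the 10 genes as log2(CPM + 0.1) by group, 1 point per library, with the group mean (line) and SD (bar), on an axis of its own for each gene, and white diamonds for the 3 libraries with atrial transcripts. On this CPM scale Frzb and, narrowly, Fzd1 are above every Sham library in all 9 TAC libraries. Sfrp5 is lowest in the 3 TAC Veh libraries, and Wnt5a is narrow in TAC 29P.

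Between TAC Veh and Sham Veh, 6 of the 9 tested members passed the adjusted threshold (Benjamini-Hochberg adjusted p of 0.05 over 16218 genes, limma) with a higher level and 1, Sfrp5, with a lower level, beside 23.6% of all genes tested higher and 1.98% lower. Between TAC 29P and Sham 29P, 5 passed with a higher level and 0 with a lower level, beside 31.5% and 1.15% of all genes. On the CPM scale and without overlap between the groups, 6 members were higher and 1 lower in Veh mice (27.6% and 2.23% of all genes). In 29P mice 4 were higher and 0 lower (25% and 1.08% of all genes). With TMM scaling 4 members were called higher in each comparison, and 2 lower in Veh mice. Without TAC Veh S2 the calls in Veh mice went from 6 to 2 higher and 0 lower. With the animal run in the model the calls in 29P mice went from 5 to 1. Sfrp5 was not called lower in Veh mice at a constant of 1, with the animal run in the model, without the libraries with atrial transcripts, or when S19, S20, S2 or S16 was left out. Since the genes were chosen with such results known, nothing is read from these counts. The median member differed by 1.06 on the log2 scale in Veh mice, where the median of all genes was 0.33. Nothing is read from this either, for the same reason.

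The scale itself moved with surgery. The median of all genes was 0.33 higher in TAC Veh than in Sham Veh and 0.36 higher in TAC 29P than in Sham 29P on the log2 CPM scale, and 0.01 in both with TMM scaling. Relative to that median, the difference between TAC Veh and Sham Veh was 2.11 for Sfrp2, 1.72 for Frzb, 1.23 for Sfrp1, 0.97 for Fzd1, 0.73 for Fzd2, 0.32 for Fzd4 and −0.62 for Wnt5a. The share of mitochondrially encoded transcripts was 29.1 to 40.0% in Sham libraries and 23.6 to 29.4% in TAC libraries. Its part in this shift of the median was not measured. Counts of pathway genes with totals that left out these transcripts are given further below. Without the libraries with atrial transcripts, the differences between TAC Veh and Sham Veh were 2.74 for Sfrp2, 2.24 for Frzb, 1.82 for Sfrp1, 1.46 for Fzd1, 1.15 for Fzd2, 0.72 for Fzd4 and −0.48 for Wnt5a. Within the runs of animal numbers that held both groups, with 1 TAC Veh library each, the same difference was 1.95 and 2.60 for Frzb, 2.17 and 2.93 for Sfrp2, 1.09 and 2.26 for Sfrp1, 1.02 and 1.91 for Fzd1, 1.0022 and 1.68 for Fzd2, and 0.34 and 0.55 for Fzd4.

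**Figure D3:**
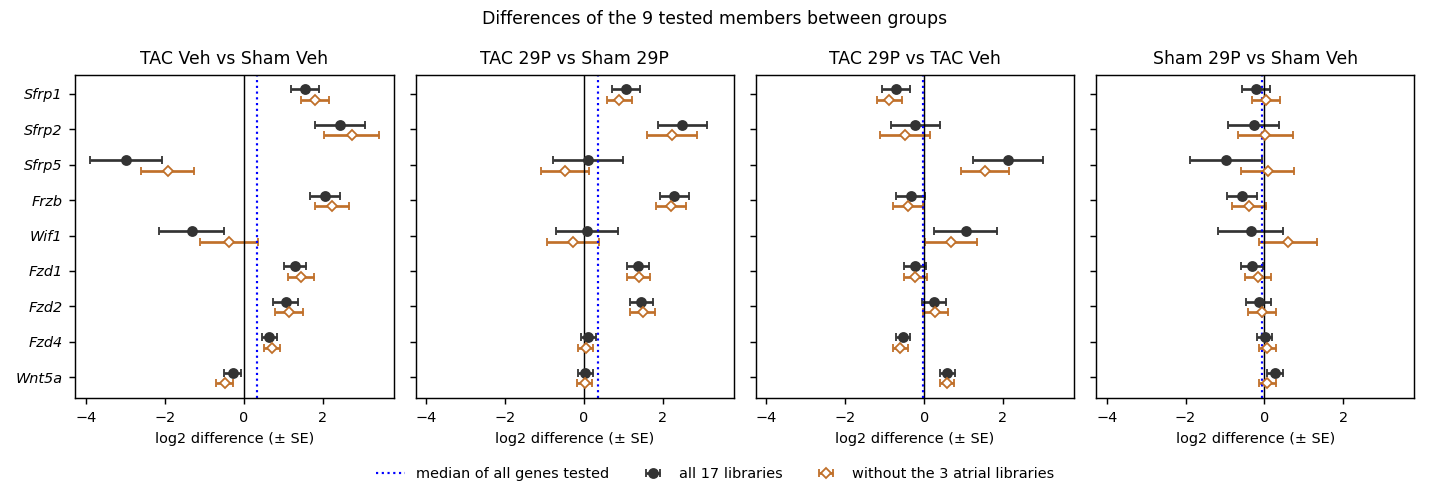
Log2 differences (± SE) of the 9 members that passed the filter in 4 comparisons, with all 17 libraries (filled circles) and without the 3 with atrial transcripts (open diamonds), and the median of all genes tested (dotted line). Sfrp1, Sfrp2, Frzb, Fzd1 and Fzd2 lie to the right of the median with surgery in Veh and in 29P mice, whereas Sfrp5 and Wif1 have the widest error bars with all 17 libraries.

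TAC 29P was then compared with TAC Veh, to describe levels after TAC with and without the drug. Of the 9 members 0 passed the adjusted threshold, as did 0% of all genes. At an unadjusted p of 0.05 the count was 2 higher and 1 lower, beside 0.95% and 1.11% of all genes. As the genes were chosen with results known, nothing is read from these counts. Wnt5a was 1.51-fold higher in TAC 29P, a log2 difference of 0.59 (SE 0.20) that was 0.58 without the libraries with atrial transcripts and 0.36 with the animal run in the model. Wnt5a and Sfrp5 were higher in TAC 29P without overlap between the groups, where 0.839% of all genes were higher and 0.987% lower. Sfrp5 was above all TAC Veh libraries in all 6 TAC 29P libraries, but S3 at 0.0498 CPM and TAC Veh S12 at 0.0489 CPM each stood at about 1 read. Its log2 difference was 2.12 (SE 0.89) at a constant of 0.1, 1.53 (SE 0.61) without the libraries with atrial transcripts and 0.65 at a constant of 1. Fzd4 was lower in TAC 29P by a log2 difference of −0.54 (SE 0.19) with overlap, and this was −0.27 with the animal run in the model and −0.32 without TAC Veh S16. Sfrp1 differed by −0.71 (SE 0.345) with overlap. This was −0.88 (SE 0.32) without the libraries with atrial transcripts and −0.85 with the animal run in the model. The 5 members Sfrp2, Frzb, Wif1, Fzd1 and Fzd2 differed by −0.23 (SE 0.62), −0.34 (SE 0.36), 1.05 (SE 0.80), −0.23 (SE 0.28) and 0.25 (SE 0.30). With the animal run in the model Fzd2 changed sign to −0.17, Frzb was −0.83 and Fzd1 −0.56. Sfrp2 changed sign to 0.19 without TAC 29P S8. Within the run that held both TAC groups, which has 1 TAC Veh library, the difference was 0.42 for Wnt5a, −0.30 for Fzd4 and 1.72 for Sfrp5. There it was −1.19 for Sfrp1, −0.32 for Sfrp2, −0.97 for Frzb, 1.25 for Wif1, −0.62 for Fzd1 and −0.17 for Fzd2.

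Between Sham 29P and Sham Veh, 0 of the 9 members passed the adjusted or the unadjusted threshold (0% of all genes adjusted, 1.57% higher and 5.15% lower unadjusted), and the groups overlapped for all 9 (0.629% of all genes were higher and 1.51% lower without overlap). Again, nothing is read from these counts, as the genes were chosen with results known. Sfrp5 had the widest difference, −0.97 (SE 0.92), which was 0.08 without the Sham Veh libraries S19 and S20. Wif1 likewise went from −0.35 (SE 0.82) to 0.60 (SE 0.74) without them.

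The 6 TAC 29P libraries were not alike. S1 and S8 were the pair with the lowest levels of Sfrp1, Sfrp2, Frzb, Fzd1 and Fzd2, and of Dkk2, which was close to the detection limit. Sfrp5, Wif1, Fzd4 and Wnt5a were lowest in other pairs. S3 had the highest level of Sfrp2, Frzb, Fzd1 and Fzd2. S1 and S8 also had the lowest sums of the activated fibroblast markers Postn, Cthrc1, Comp, Thbs4 and Cilp, at 246 and 436.5 CPM. S3 had the highest sum, at 1733 CPM. All 5 markers were detected in every library, and their sum was 71.8 to 135 CPM in Sham Veh, 44.6 to 89.65 in Sham 29P and 641 to 1775 in TAC Veh. Sums of general fibroblast markers were 647 to 1151 CPM in Sham and 995.4 to 2115 in TAC libraries, those of endothelial markers 377 to 806 and 680 to 1031, and those of macrophage markers 46.8 to 113 and 119 to 211. Mural cell markers summed to 841 to 1107 CPM in Sham and 1113 to 1482 in TAC libraries, mesothelial markers to 3.98 to 13.8 and 3.86 to 11.8, and Schwann cell markers to 4.58 to 9.79 and 3.83 to 10.7. Their part in the results was not tested, and in bulk tissue more cells of a type and more RNA per cell cannot be told apart.

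Over the 17 libraries, which share the group structure, pairs of members were compared by the Pearson correlation of log2(CPM + 0.1). Fzd1 and Fzd2 correlated with r = 0.92 (0.79 after group means were taken out), Frzb and Fzd1 with 0.91 (0.62), Sfrp1 and Sfrp2 with 0.89 (0.79), and Sfrp5 and Wif1 with 0.86 (0.87). Sfrp5 and Frzb gave −0.29 (0.16), and Fzd4 and Wnt5a −0.57 (−0.46). Over the 14 libraries without atrial transcripts, r was 0.71 for Sfrp5 and Wif1, −0.54 for Sfrp5 and Frzb, −0.82 for Fzd4 and Wnt5a, and 0.88 to 0.93 for the other pairs named. Of all genes tested, the most alike to Frzb were Dio2 (0.99), Col5a2 (0.98) and Ltbp2 (0.98), to Fzd1 Phlda3, Pcolce and Dok1 (0.98 each), to Sfrp1 Pde1a, Tgfb3 and C1ra (0.96 each), to Sfrp2 Cped1 (0.96), Sh3d19 (0.95) and Loxl3 (0.95), and to Fzd2 Rbm43 (0.96), Snx9 (0.96) and Tmem98 (0.95). The lists were led by Sbk2 (0.91), H19 (0.91) and Cpne5 (0.89) for Sfrp5, by H19 (0.93), Igf2 (0.92) and Cytl1 (0.88) for Wif1, by Mgat4a (0.89), Pfkfb3 (0.87) and Errfi1 (0.87) for Fzd4, and by Sox6 (0.86), Bik (0.84) and Hcn4 (0.83) for Wnt5a. S18, S19 and S20 were the 3 highest libraries for Sfrp5, Wif1, H19 and Igf2, and without them r was 0.82 with Sbk2, 0.78 with H19 and 0.68 with Cpne5 for Sfrp5, and 0.90 with H19, 0.86 with Igf2 and 0.78 with Cytl1 for Wif1. These are descriptions of 17 libraries and carry no test.

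Levels of different genes were compared per kb of exon. In Sham Veh mice the order of mean CPM per kb was Fzd4 (11.8 ± 2.08), Sfrp1 (2.81 ± 0.755), Frzb (1.96 ± 0.647), Fzd1 (1.47 ± 0.365), Sfrp2 (1.01 ± 0.414), Wif1 (0.912 ± 0.806), Wnt5a (0.856 ± 0.222), Fzd2 (0.706 ± 0.144), Sfrp5 (0.672 ± 0.646) and Dkk2 (0.0576 ± 0.0444; SD, n = 5 for each). Apart from Fzd4 over Sfrp1, no neighbours in this order were further apart than their SDs together. In TAC Veh mice Frzb (8.38 ± 3.37) and Sfrp1 (8.31 ± 2.14) stood next to each other below Fzd4 (18.7 ± 5.20), followed by Sfrp2 (5.20 ± 0.560), Fzd1 (3.66 ± 0.963) and Fzd2 (1.53 ± 0.484; SD, n = 3 for each). The 5 secreted Frzb and Sfrp genes, Sfrp4 included, summed to 6.54 ± 1.89 CPM per kb in 5 Sham Veh, 4.71 ± 1.05 in 3 Sham 29P, 22.01 ± 4.935 in 3 TAC Veh and 19.27 ± 10.98 in 6 TAC 29P mice (mean ± SD). Within that sum, Sfrp1 held 43.3% ± 4.48 in Sham Veh, 50.8% ± 6.53 in Sham 29P, 37.5% ± 1.79 in TAC Veh and 30.4% ± 6.06 in TAC 29P. Sfrp5 held 8.79% ± 6.94, 4.32% ± 2.16, 0.0515% ± 0.0892 and 2.06% ± 2.298 in the same order, and its share in Sham Veh includes S19 and S20, which hold atrial transcripts.

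The 9 Frizzled genes in the file summed to 21.8 ± 2.36 CPM per kb in 5 Sham Veh, 21.7 ± 1.98 in 3 Sham 29P, 34.1 ± 3.84 in 3 TAC Veh and 27.7 ± 2.70 in 6 TAC 29P libraries (mean ± SD). Fzd4 held 53.8% ± 4.79, 54.4% ± 8.57, 54.4% ± 9.32 and 46.0% ± 6.25 of the sum in these 4 groups in the same order. Fzd1 held 6.69% ± 1.02, 5.74% ± 2.78, 10.8% ± 3.17 and 11.2% ± 2.31, and Fzd2 3.21% ± 0.309, 3.15% ± 1.67, 4.61% ± 1.75 and 6.62% ± 2.09. Fzd6 was the second most abundant, at 17.98 to 22.7% on average. Fzd4 thus gave the largest share in all 17 libraries, from 38.7 to 64.1%.

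**Figure D4:**
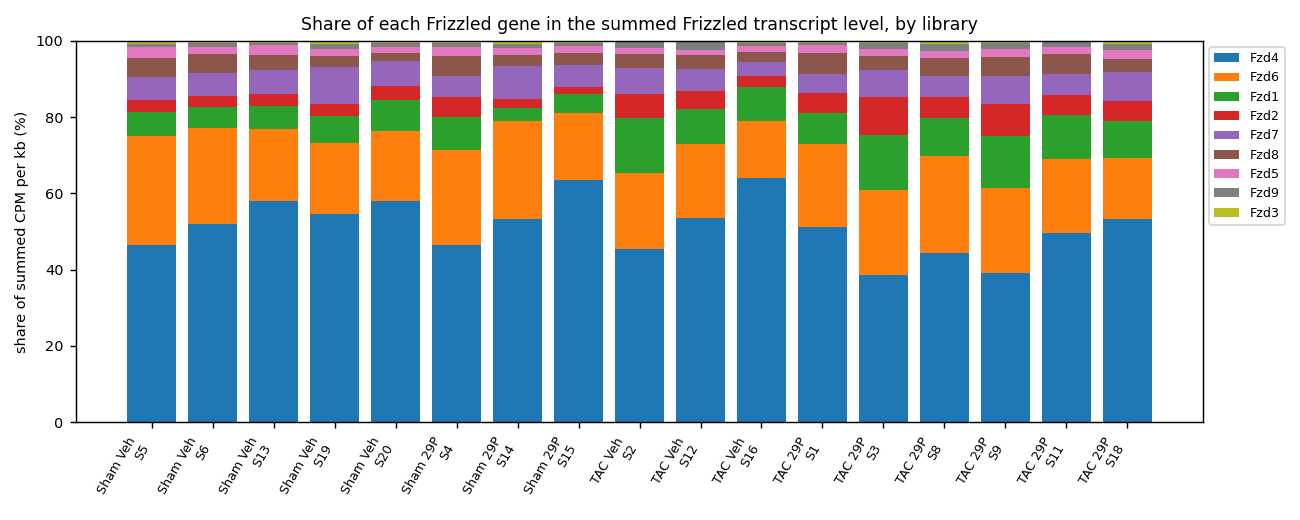
Share of each of the 9 Frizzled genes in their summed CPM per kb, 1 stacked bar per library from 0 to 100%, with libraries ordered by group. Fzd4 is the largest share in every bar, from 38.7 to 64.1%, and Fzd1 is at 3.37 to 8.81% in Sham and 8.27 to 14.5% in TAC libraries.

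Of 88 other genes of the pathway, 75 were in the file and 63 passed the filter. Between TAC Veh and Sham Veh, 21 of them rose, 2 fell and 40 did not pass the adjusted threshold in limma, beside 23.6% of all genes higher and 1.98% lower. Their median log2 difference was 0.41, against 0.33 for all genes, and with TMM scaling 4 rose and 3 fell. Without the libraries with atrial transcripts 12 rose and 1 fell, and without TAC Veh S2 3 rose. By role, 5 of 6 co-receptors and alternative receptors rose, as did 7 of 10 cytoplasmic genes with 1 falling, 4 of 9 direct targets of beta-catenin, 2 of 5 other extracellular inhibitors, 1 of 6 other Frizzled receptors, 1 of 6 R-spondin and norrin genes with 1 falling, 1 of 9 planar polarity genes and 1 of 7 TCF/LEF factors and co-activators. Of the 7 other ligands and the 2 secretion genes, 0 passed. With TMM scaling the risen genes were 1 of the co-receptors, 2 of the targets and 2 of the inhibitors, the fallen ones 1 cytoplasmic gene, 1 of the R-spondin and norrin genes and 1 of the TCF/LEF factors and co-activators, and the median of the other Frizzled receptors went from 0.33 to −0.0027. A gene may stand in more than one of these lists.

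The 6 that rose the most between TAC Veh and Sham Veh were led by Nkd2, a target and inhibitor of the pathway that binds Dishevelled. Nkd2 was 1.26 to 2.64 CPM in Sham Veh and 6.60 to 15.9 in TAC Veh, a log2 difference of 2.37 (SE 0.42, limma adjusted p = 0.00206). Ptk7, an alternative Wnt receptor, was 1.75 to 3.53 and 5.62 to 7.38 CPM, a difference of 1.31 (SE 0.27, limma adjusted p = 0.00415). Kremen1, a receptor that works with Dkk proteins, was 53.6 to 131 and 151 to 224 CPM, a difference of 1.10 (SE 0.24, limma adjusted p = 0.00583). Apcdd1, a membrane inhibitor, differed by 1.23 (SE 0.30, limma adjusted p = 0.00954), the receptor Fzd9 by 1.18 (SE 0.34, limma adjusted p = 0.0209) and the target Myc by 1.29 (SE 0.43, limma adjusted p = 0.0372). With TMM scaling, Nkd2, Ptk7, Kremen1 and Apcdd1 still passed, and Fzd9 (limma adjusted p = 0.0996) and Myc (limma adjusted p = 0.153) did not. The 2 that fell were Lgr6, an R-spondin receptor, by a log2 difference of −0.54 (SE 0.16, limma adjusted p = 0.0230), and Dvl2, a Dishevelled protein, by −0.51 (SE 0.14, limma adjusted p = 0.0150). Without the libraries with atrial transcripts Lgr6 did not pass (limma adjusted p = 0.107).

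Between TAC 29P and Sham 29P, 23 of the 63 rose and 1 fell, beside 31.5% of all genes higher and 1.15% lower, and with TMM scaling 7 rose and 4 fell. With the animal run in the model 5 rose, and without Sham 29P S14 7 rose. Their median log2 difference was 0.49, against 0.36 for all genes. Between TAC 29P and TAC Veh 0 of the 63 passed the adjusted or the unadjusted threshold in limma. Between Sham 29P and Sham Veh 0 passed in limma after adjustment, and at an unadjusted p of 0.05 Wnt2b (log2 difference 0.96, limma adjusted p = 0.715), Gsk3b (0.28, limma adjusted p = 0.715) and Bcl9 (0.53, limma adjusted p = 0.715) were higher and Wnt2 (−1.55, limma adjusted p = 0.715) lower, beside 1.57% of all genes higher and 5.15% lower. Wnt2, a ligand, was at most 0.671 CPM in any library. The difference with surgery did not differ between treatments for any of the 63 after adjustment in the limma interaction, and at an unadjusted p of 0.05 (1.92% of all genes higher, 0.937% lower) 2 genes had a larger difference in 29P mice, Wnt2 (by 2.09, limma adjusted p = 0.999) and Daam2, a planar polarity gene (by 0.74, limma adjusted p = 0.999).

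**Figure D5:**
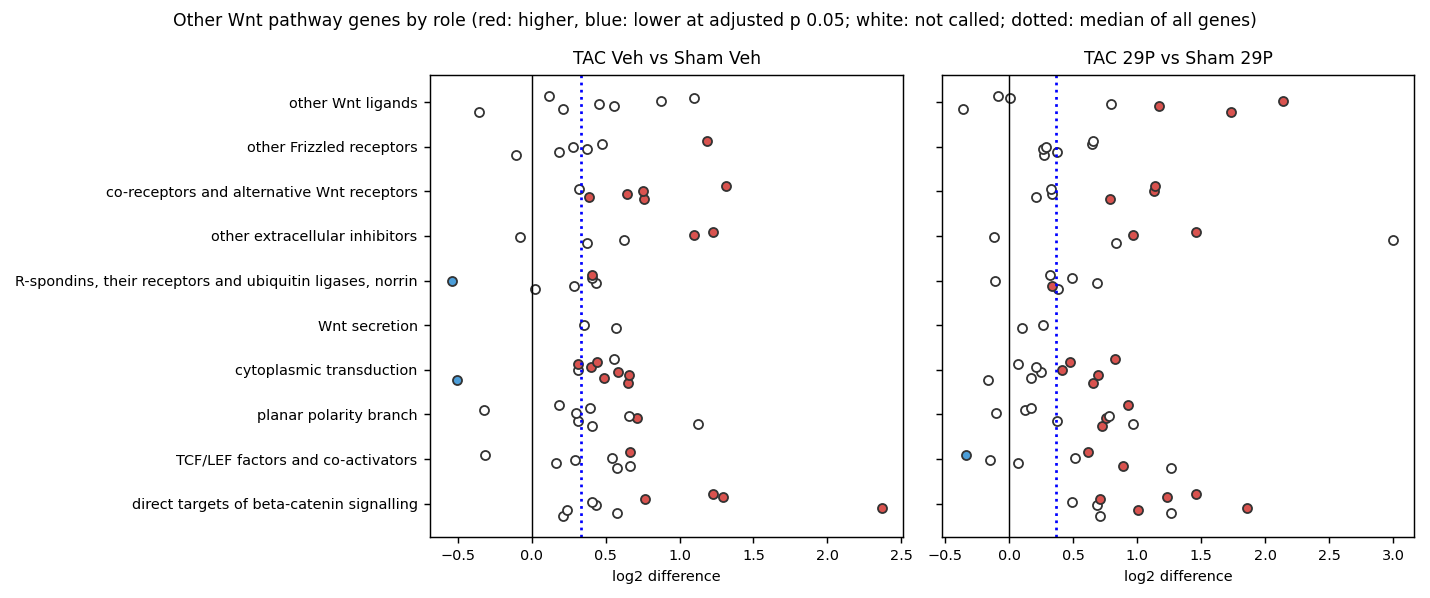
Log2 differences with surgery of the 63 other pathway genes that passed the filter, by role (rows), in Veh mice (left) and 29P mice (right), 1 point per gene and list, filled where the limma adjusted p is 0.05 or less. The points scatter around the median of all genes (dotted line, 0.33 and 0.36), with 21 genes filled higher and 2 lower in Veh mice and 23 and 1 in 29P mice.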

How the data were processed

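Bulk RNA-sequencing of left ventricular apex (TRIzol RNA, NEBNext Ultra II mRNA libraries) was analysed in 17 libraries grouped by the treatment label. Per the submitters' notes, reads were aligned to mm10 with STAR 2.3.7 in Partek, and the authors deposited CPM with 0.0001 added, which was taken off again here. The values are labelled CPM and not read counts, so no count model was used. Instead, limma 3.58.1 in R 4.3.3 was fitted to log2(CPM + 0.1) for 16218 genes with a CPM of at least 0.5 in at least 3 libraries. The model had 1 mean per group, a variance trend and Benjamini-Hochberg adjustment over all genes. The constant and filter limit what low genes such as Dkk2 and Sfrp5 can show. The code was tested on simulated data. Python 3.11.15 drew the figures.

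The members and all gene lists were chosen with earlier results of these data known. Of the other pathway genes, the text names up to 6 in each direction with the largest called difference between TAC Veh and Sham Veh, those called in a 29P comparison or the interaction (at an unadjusted p of 0.05 where none was called), and for each member the 3 genes with the highest correlation. Alternatives were other constants, filters and scalings, fits of the compared groups alone, the run of animal numbers added to the model, and libraries left out. Libraries carry separate animal numbers in the labels and were counted as replicates. The libraries the authors removed were not analysed here.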

Additional observations from a re-analysis of the deposited data

Results flagged for a closer look

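Of 20 sets of values (10 genes in Sham Veh and in TAC 29P, the groups with 5 and 6 libraries), 1 held a library far from the others, about as many as chance gives at 1 in 20. Sfrp2 in Sham Veh S6 was 0.671 CPM, and on the log2(CPM + 0.1) scale its gap to the nearest library was 0.778 of the range of the group, above the limit of 0.71 for 5 libraries. Without S6 the log2 difference of Sfrp2 between TAC Veh and Sham Veh was 2.09 instead of 2.45, and that of Frzb 2.17 instead of 2.06.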

How the results depend on the processing

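Counts of the 63 other pathway genes changed with the scaling, the animal run and single libraries. With TMM factors 4 instead of 21 rose between TAC Veh and Sham Veh, and between TAC 29P and Sham 29P 7 instead of 23 rose and 4 instead of 1 fell, while 4 members were called higher in each of them instead of 6 and 5, the TMM factors taking out the higher median of all genes after TAC. With totals that left out the mitochondrially encoded genes, 8 and 13 rose in these comparisons. With the animal run in the model, between TAC 29P and Sham 29P 5 pathway genes rose and 0 fell, and 1 member was called higher instead of 5. Without the 3 libraries with atrial transcripts, an alternative chosen after seeing the data, 12 pathway genes rose and 1 fell between TAC Veh and Sham Veh. The cause was not tested for the run. Sfrp5, the 1 member called lower between TAC Veh and Sham Veh, was not called with a constant of 1, with the animal run in the model or without the libraries with atrial transcripts (a count of 0 each), and with TMM factors the count was 2. At an unadjusted p, 3 pathway genes were higher and 1 lower between Sham 29P and Sham Veh, and 2 were past the threshold in the interaction. Leaving out 1 library at a time, between TAC Veh and Sham Veh the pathway genes that rose numbered 3 (without TAC Veh S2) to 24, those that fell 0 to 3, members called higher 2 (without TAC Veh S2) to 6 and lower 0 (without Sham Veh S19, for example) to 1. Between TAC 29P and Sham 29P they numbered 7 (without Sham 29P S14) to 29 and 0 to 1 for the pathway genes, and 4 to 5 and 0 to 0 for the members. In the 29P comparisons within TAC and within Sham and in the interaction, the count was 0 to 0 throughout. The remaining alternatives (a constant of 0.0001, filters and only the groups compared) kept each of these counts within 1.5 times. The groups share no library numbers, so the run of animal numbers was the only block fitted. Depth limits Dkk2 and Sfrp5, where 1 read stands for 0.0421 to 0.0705 CPM.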

Other observations

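Among the 7 other ligands of the pathway that were tested, 3 rose between TAC 29P and Sham 29P, beside 31.5% of all genes higher, and they are named here after their values were seen. Wnt9b was 0.231 to 0.282 CPM in Sham 29P and 0.824 to 3.84 CPM in TAC 29P, a log2 difference of 2.14 (SE 0.43, limma adjusted p = 0.00349) without overlap. Wnt2 differed by 1.73 (SE 0.52, limma adjusted p = 0.0202) and Wnt5b by 1.17 (SE 0.32, limma adjusted p = 0.0140). Wnt2 was low, at 0 to 0.138 CPM in Sham 29P (median 0) and 0.227 to 0.528 CPM in TAC 29P. At such levels the size of a log2 difference depends on the constant added. With the animal run in the model the differences were 1.89 for Wnt9b, 1.15 for Wnt2 and 0.72 for Wnt5b. With TMM scaling 1 of the 7, Wnt9b (limma adjusted p = 0.0101), passed, and Wnt2 (limma adjusted p = 0.0573) and Wnt5b (limma adjusted p = 0.0725) did not. Between TAC Veh and Sham Veh none of the 3 passed the adjusted threshold in limma, with differences of 0.87 for Wnt9b, −0.36 for Wnt2 and 0.56 for Wnt5b, and the interaction did not pass for any of them (limma adjusted p = 0.999).

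Dkk3 did not pass between TAC Veh and Sham Veh with all libraries, with a log2 difference of 0.62 (SE 1.30, limma adjusted p = 0.730). Without the 3 libraries with atrial transcripts, where it was 100.1 to 194 CPM, it rose by 2.80 (SE 0.57, limma adjusted p = 0.00912). Of the 3 libraries, 2 are Sham Veh and 1 is TAC 29P.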
